A study of Mus musculus with 2 samples.

Results

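The miR-130 and miR-301 family is a set of microRNA (miRNA) genes whose mature products carry the same seed, the bases 2 to 8 that pair with target mRNAs. The genes described here are Mir130a, Mir130b, Mir301 (the gene of miR-301a) and Mir301b, which are 4 of the 1973 miRNA genes counted. They were chosen by their shared seed with their own-strand CPM in these libraries already known, so their levels are a description and carry no test. RNA molecules shorter than 30 nt were sequenced from kidneys of B6NCrl mouse embryos at 15.5 days of development. Both libraries belong to 1 group and are biological replicates per the labels. Each library was made from a pool of kidneys of both sexes, from 78 embryos in replicate 1 and 62 embryos in replicate 2, and both are labelled healthy, with no treatment named. The samples hold no other tissue, age or genotype, so no groups were compared.

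A miRNA is cut from a hairpin precursor and loaded into an Argonaute protein, where its seed selects the mRNAs to be repressed. Members of a seed family can therefore act on overlapping targets. This family has been studied in vascular cells, in proliferation and in fibrosis, and the targets reported for it include Pparg and Tsc1. No mRNA was measured here.

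Mature sequences from RefSeq (GRCm38.p6) are shown first because the shared seed defines the family and the bases after it set the members apart. The table held 4 of 4 member hairpins and 7 of their mature sequences, and mmu-miR-301b-3p is named only. The seed is in capitals.
mmu-miR-130a-3p: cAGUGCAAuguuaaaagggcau
mmu-miR-130b-3p: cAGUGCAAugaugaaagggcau
mmu-miR-301a-3p: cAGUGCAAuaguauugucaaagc

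Counted from 1 at the 5′ end, miR-130a-3p and miR-130b-3p differed at 2 of 22 positions, U11A and A13G with the base of miR-130a-3p written first. Between miR-130a-3p and miR-301a-3p, 10 of the 22 positions compared differed, and the first difference was G10A. The 3 sequences shown thus had the seed and the next base in common, and the miR-130 and miR-301 products parted in the 3′ part. Of 1738 mature sequences in the table, 7 (0.403%) carried this seed.

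The other arm of each hairpin does not carry the family's seed. Its own seed is in capitals below, and the 5p arms are shown because reads of both arms enter a gene's count.
mmu-miR-130a-5p: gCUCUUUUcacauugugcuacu
mmu-miR-130b-5p: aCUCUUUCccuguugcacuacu
mmu-miR-301a-5p: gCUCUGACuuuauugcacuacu
mmu-miR-301b-5p: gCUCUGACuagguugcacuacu

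miR-301a-5p and miR-301b-5p shared a seed and differed at 3 of 22 positions (U10A, U11G and A12G, from miR-301a-5p to miR-301b-5p). miR-130a-5p and miR-130b-5p had different seeds and differed at 7 of 22 positions. The counts are for whole hairpins, so reads of the arms are summed in every value below.

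Mir130a was the leading member, with 193705 own-strand reads in replicate 1 and 132569 in replicate 2. Per 1000000 own-strand gene reads of the library (CPM) this was 26056 and 22610. The mean was 24333 ± 2437 CPM (SD, n = 2), or 2.43% of all miRNA gene reads. It ranked 13 by mean CPM, 12 in replicate 1 and 13 in replicate 2. Mir10a, the most abundant gene, stood 6.42 and 6.22 times higher. A read that fits several loci was assigned to no gene, so genes that share sequence with another miRNA gene can be counted too low. No member shared a run of 20 bases with a miRNA gene elsewhere. The members' ranks and shares of reads, here and below, are thus places among reads assigned to a single gene.

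Mir130b followed, with 49988 and 32468 reads, or 6724 CPM in replicate 1 and 5538 CPM in replicate 2. Its mean of 6131 ± 839 CPM (SD, n = 2) placed it at rank 29. Mir301 had 4893 and 4938 reads, or 658 and 842 CPM, and its mean of 750 ± 130 CPM (SD, n = 2) gave rank 91. Mir301b was the lowest member, with 461 and 406 reads. Its levels of 62.0 CPM (95% exact binomial interval 56.5 to 67.9) and 69.2 CPM (62.7 to 76.3) had a mean of 65.6 ± 5.11 CPM (SD, n = 2) and rank 199. Mir130a and Mir130b were higher in replicate 1, and Mir301 and Mir301b higher in replicate 2, but no member's range reached that of the next. Each gap in the order Mir130a, Mir130b, Mir301, Mir301b was at least 5.26 times the larger SD of its neighbours. Such intervals cover counting error only, and in whole kidney a low share of expressing cells and a low level per cell cannot be told apart.

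**Figure D1:**
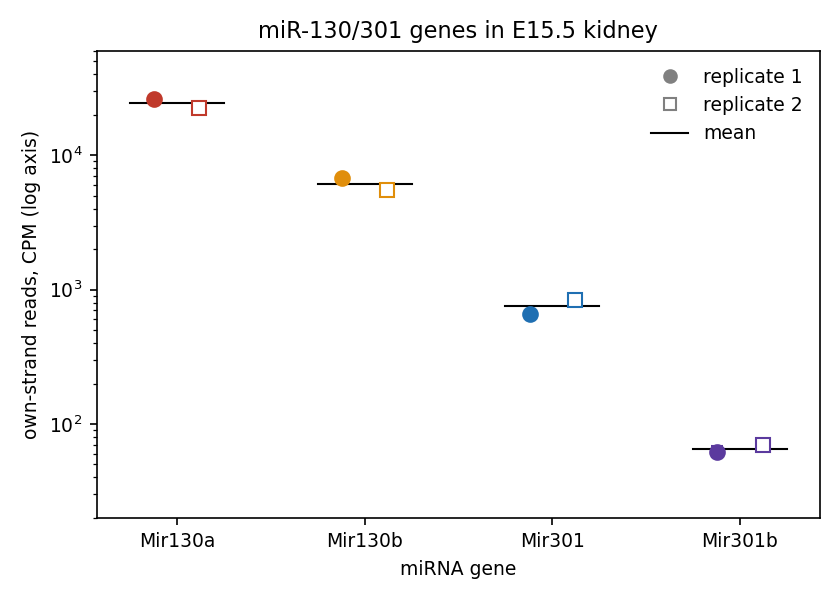
Own-strand CPM (log axis) of the 4 genes in replicate 1 (filled circles) and replicate 2 (open squares), with the mean as a line and 95% exact binomial intervals, which are mostly smaller than the points. Levels step down from 24333 CPM for Mir130a to 65.6 CPM for Mir301b, and the libraries of one gene never reach the level of the next.

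Together the members held 3.35% of miRNA gene reads in replicate 1 and 2.91% in replicate 2, a mean of 3.13% ± 0.314 (SD, n = 2). Mir130a supplied 77.8% of the family's reads in either library, with an SD of 0.0204 percentage points. Mir130b supplied 20.1% and 19.1%. Mir301 made up 1.96% of the family in replicate 1 and 2.90% in replicate 2, and Mir301b 0.185% and 0.238%. In these counts the family was thus mostly Mir130a and Mir130b, at 97.9% and 96.9% of its reads.

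The genes around the members in the ranking show which other miRNA genes had similar counts. Next to Mir130a were Mir196b, a gene of the Hoxa cluster, at 25231 ± 1222 CPM and Mir23b at 21569 ± 1202 CPM (SD, n = 2 each). Mir196b was above Mir130a in both libraries, but by only 0.368 of the larger SD, and Mir23b was below it in both, by 1.13 of the larger SD. Next to Mir130b were Mir106b, a paralog of Mir17, at 6441 ± 477 CPM and Mir151 at 6061 ± 5.65 CPM. Mir301 stood between Mir206, a skeletal muscle miRNA, at 809 ± 212 CPM and Mir542 at 737 ± 45.9 CPM. Mir301b stood between Mir199a-2 at 68.3 ± 13.4 CPM and Mir362 at 63.5 ± 16.1 CPM. For Mir301 and Mir301b, and for Mir130b against Mir151, the order with these neighbours turned between the libraries, and every such gap was smaller than the larger SD. Of the neighbours named, Mir23b and Mir199a-2 share a run of 20 bases with another miRNA gene. Reads that fit several loci can be missing from their counts, which may therefore lie below the level of their mature products.

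Further genes encode the same seed. The sequences of their mature products are shown because they start like the members and then diverge.
mmu-miR-130c: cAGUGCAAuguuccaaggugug
mmu-miR-6341: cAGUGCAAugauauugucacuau
mmu-miR-6389: cAGUGCAAuguuaaacuuugc
mmu-miR-721: cAGUGCAAuuaaaagggggaa

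Mir130c, Mir6341 and Mir6389 each had 0 own-strand reads in both libraries. With 3 counts as the limit for a count of 0, a level below 0.404 CPM could have been missed in replicate 1, and one below 0.512 CPM in replicate 2. Mir721 was not analysed here. Every own-strand read of the genes measured with this seed therefore came from the 4 members.

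Seeds that match 6 bases of the family's seed, offset by 1 base, belong to the miR-148, miR-152 and miR-19 genes and to Mir350 and Mir291b. miR-148a-3p and miR-19a-3p are printed to show the shift, with their seeds in capitals.
mmu-miR-148a-3p: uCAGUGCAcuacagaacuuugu
mmu-miR-19a-3p: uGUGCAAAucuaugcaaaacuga

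These relatives were far lower than the family. Mir148a, Mir148b and Mir152 share the seed CAGUGCA and together held 0.0693% and 0.0714% of reads, so the 4 members held 48.4 and 40.7 times as many. Mir148a stood at 457.9 and 464 CPM, below Mir301 in both libraries. Mir148b had 124 and 121 CPM and Mir152 had 111 and 130 CPM, all above Mir301b. The genes with the miR-19 seed GUGCAAA, which lie in the clusters of Mir17 and Mir106a, held 0.00759% and 0.00609%. Mir19a reached 54.1 and 40.1 CPM, below Mir301b in both libraries. Mir19b-1 reached 17.1 and 14.3 CPM and Mir19b-2 reached 4.71 and 6.48 CPM, but they make an identical product, and a read that fits several loci was assigned to no gene. Mir350, whose 5p product has the seed AAGUGCA, had 239 and 185 CPM, and Mir291b had 1 and 5 reads.

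**Figure D2:**
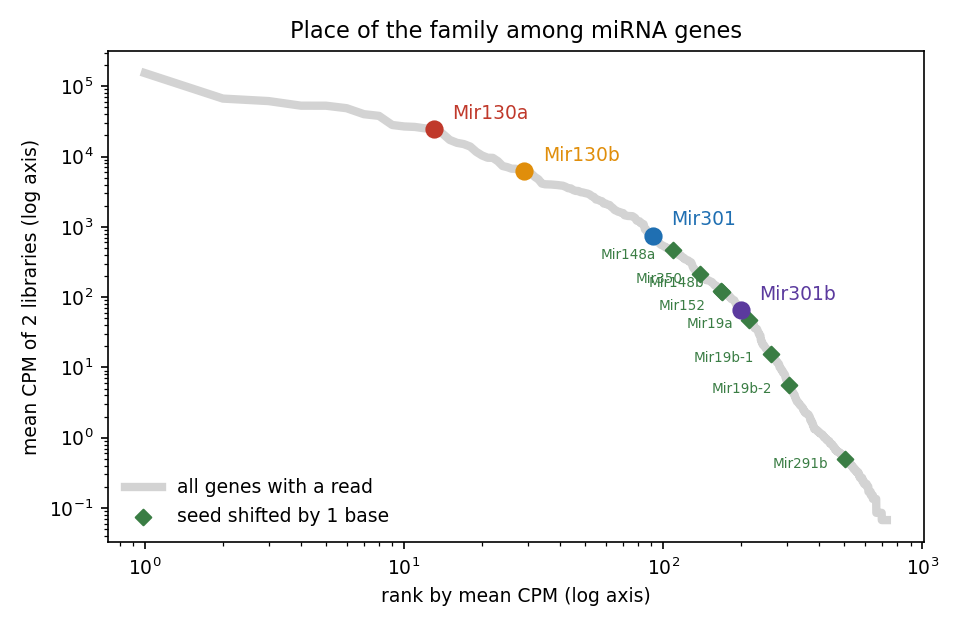
Mean CPM of the 2 libraries against rank (both log axes) for all genes with a read (grey line), the 4 family genes (coloured circles) and the genes whose seed is shifted by 1 base (green diamonds). Mir130a and Mir130b lie at ranks 13 and 29, above every gene with a shifted seed, and Mir301b lies at rank 199 among them.

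Positions are from GENCODE M21 on mm10. Mir130a (ENSMUSG00000065484.1) lies at chr2:84741115-84741178 on the minus strand, outside any other annotated gene, between Ypel4, whose end is 2459 bases away, and Gm19426, 990 bases away on the same strand. Mir301 (ENSMUSG00000065589.1) lies at chr11:87113004-87113089 on the plus strand, in an intron of both annotated transcripts of Ska2 that span it. Ska2 encodes a part of the complex that joins spindle microtubules to kinetochores. Mir130b (ENSMUSG00000065572.1, chr16:17124061-17124142) and Mir301b (ENSMUSG00000076288.1, chr16:17124400-17124496) lie on the minus strand, in an intron of 3 transcripts of the protein-coding gene 2610318N02Rik. Only 257 bases separate them, and no member overlaps an exon of another gene.

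Mir130b and Mir301b, the only members that neighbour each other, had very unequal counts. The ratio of Mir130b to Mir301b was 108 in replicate 1 (95% exact binomial interval 98.9 to 119) and 79.97 in replicate 2 (72.5 to 88.4). It was high in both libraries, and the intervals did not overlap. Their hairpins are printed with the seed run in capitals, and the longest run the 2 share is 14 bases.
Mir130b hairpin: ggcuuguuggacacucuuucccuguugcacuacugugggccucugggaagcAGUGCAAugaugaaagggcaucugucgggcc
Mir301b hairpin: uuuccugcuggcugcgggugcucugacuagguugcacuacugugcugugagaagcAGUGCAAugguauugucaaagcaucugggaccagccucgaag

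The seed run occurred once in each of the 4 member hairpins. In the structure predicted by RNAfold all 7 of its bases were paired, for every member. Predicted folding energies were -22.1 kcal/mol for Mir130a (64 bases), -30.1 for Mir130b (82 bases), -37.0 for Mir301 (86 bases) and -39.1 for Mir301b (97 bases). Per base this was -0.345, -0.367, -0.430 and -0.403 kcal/mol, so the 2 lower genes had the more stable predicted hairpins per base. These are values of 4 sequences and carry no test.

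Among 92 pairs of miRNA genes that neighbour each other on 1 strand within 10 kb, with a mean count of at least 10 for each gene, the ratio of Mir130b to Mir301b in mean CPM (93.4) was the 8th largest. The median pair differed 7.97-fold. Some of these genes share a run of 20 bases with another miRNA gene, which can send their reads to the class matching several loci. Of the 59 pairs without such a gene, only 1 was more uneven, Mir20a over Mir19a. The filter on counts left out more uneven pairs whose lower gene had few reads. Mir1306 at 174 CPM and Gm24572 at 0.507 CPM are an example, close together on 1 strand and without such a run. The place of Mir130b over Mir301b thus holds among the filtered pairs only and is a description, without a test.

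**Figure D3:**
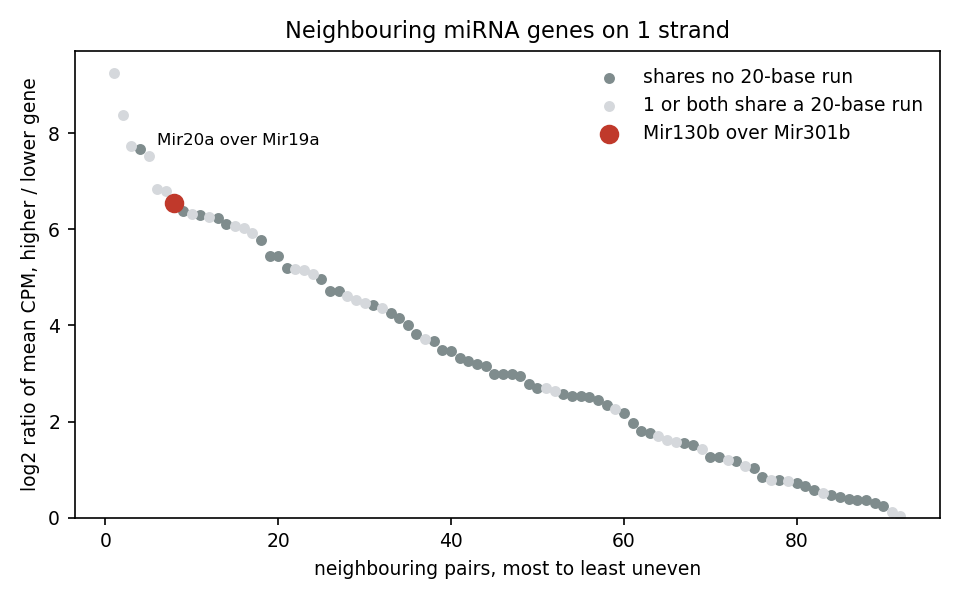
The log2 ratio of mean CPM between the higher and the lower gene of 92 neighbouring pairs, from the most to the least uneven; dark points are the 59 pairs whose genes share no run of 20 bases with another miRNA gene. Mir130b over Mir301b (red) is at place 8, and among the dark points only Mir20a over Mir19a lies higher. Pairs with a gene below a mean count of 10 are not shown.

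Other ratios within the family were Mir130a over Mir130b at 3.88 and 4.08, and Mir301 over Mir301b at 10.6 and 12.2. Mir130a over Mir301 was 39.6 in replicate 1 and 26.8 in replicate 2. By their 5p arms the miR-301 genes were the more alike pair, yet their mean ratio was 11.4 ± 1.10, against 3.98 ± 0.147 for Mir130a over Mir130b (SD, n = 2 each). The reference mature sequences of the members are 22 or 23 bases long, and counts were not divided by hairpin length.

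No member shared a run of 20 bases with a miRNA gene elsewhere. The longest run shared by any pair of member hairpins was 16 bases, between Mir301 and Mir301b. Each of the 7 mature sequences occurred in no other gene among 55450 genes of the transcript set, and the first 18 bases of each did not either. The shortest start of miR-130a-3p found in no other miRNA hairpin was 16 bases long, against 13 for miR-130b-3p and 10 for miR-301a-3p. A genome sequence was not used here, so matches outside annotated transcripts were not looked for. Opposite-strand reads of the members numbered 1 in all, at Mir130a in replicate 1.

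The libraries held 7434182 and 5863293 own-strand gene reads. Reads matching several loci made up 27.1% and 26.6% of all reads. Across genes the libraries differed by more than sampling noise (chi-square divided by its 437 degrees of freedom, 207), so they were kept as 2 samples. Of the kidney markers listed, 7 of 7 miRNA genes reached 1 CPM in both libraries, against 394 of all 1973 genes. They held 3.00% ± 0.153 of reads (SD, n = 2), mostly from Mir30a, Mir429 and Mir200c, and 2 of the 7 share sequence with another miRNA gene. Of 5 brain genes, 4 were at 0 in both libraries, but so were 1244 of all 1973 genes. All 5 also share sequence with another miRNA gene, so these counts do not show whether brain tissue was absent.

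Between the pools the members moved in both directions. Mir130a and Mir130b were lower in replicate 2, with log2 ratios of -0.20 (95% exact interval -0.21 to -0.19) and -0.28 (-0.30 to -0.26). Mir301 was higher, at 0.36 (0.30 to 0.41). By an exact binomial test (two-sided, adjusted over 378 genes by Benjamini-Hochberg), 3 of 4 members differed, 2 lower and 1 higher. The test weighs a pair of libraries against counting error alone, and it called 55.8% of all genes tested, 40.2% as higher and 15.6% as lower in replicate 2. The adjusted p was 3.32e-164 for Mir130b and 1.85e-33 for Mir301, and too small to be held as a number for Mir130a. Mir301b had a log2 ratio of 0.16 (-0.04 to 0.35) and an adjusted p of 0.162, so no difference was detectable at its depth. None of the members differed by at least 2-fold, against 6.08% of all genes tested.

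Many genes differed by more than the members. A larger absolute log2 ratio was seen in 64.0% of the 378 genes for Mir130a, in 50.0% for Mir130b, in 41.8% for Mir301 and in 71.4% for Mir301b. The biological coefficient of variation over these genes was 0.231. Scaling with TMM moved all log2 ratios by -0.13 and with DESeq2 size factors by -0.16. Of all called genes, 72.0% were higher in replicate 2, against 49.5% with TMM and 46.2% with DESeq2 size factors. Mir130a, Mir130b and Mir301 kept their direction under both scalings, and Mir301b, which passed no test, went from 0.16 to 0.03 with TMM and to -0.00092 with DESeq2 size factors. The family's sum had a log2 ratio of -0.21 (-0.21 to -0.20), close to that of Mir130a.

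**Figure D4:**
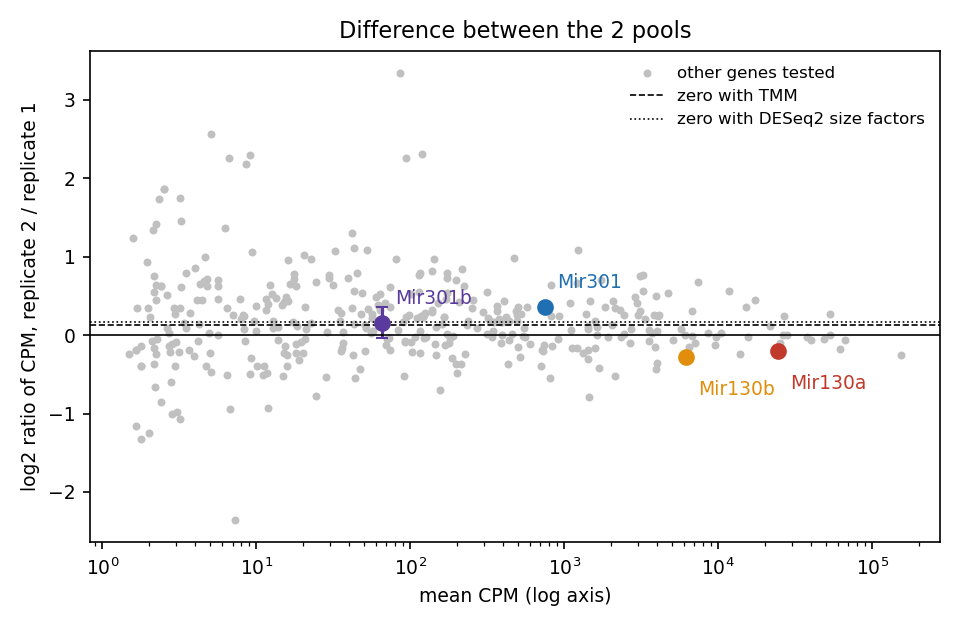
The log2 ratio of CPM, replicate 2 over replicate 1, against mean CPM (log axis) for the 378 genes tested, with the 4 family genes in colour and their 95% exact intervals; dashed and dotted lines show where 0 would lie with TMM and DESeq2 size factors. Mir130a (-0.20) and Mir130b (-0.28) lie below all lines, Mir301 (0.36) above them and Mir301b (0.16) near the dashed and dotted lines.

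Some tissue and cell type markers also differed between the pools by the same test, which called 55.8% of all genes. The liver miRNA Mir122 was called higher in replicate 2, with 0.0319% of reads in replicate 1 and 0.0628% in replicate 2. The endocrine Mir375 was called higher too, at 0.124% and 0.168%. Of the erythroid genes, which summed to 0.0339% and 0.0466%, Mir451a was called higher and Mir144 was not called. The smooth muscle genes summed to 2.495% and 2.94%, and of them Mir143 was called higher and Mir145a was not called. Both skeletal muscle genes, Mir206 and Mir133b, were called lower in replicate 2, with sums of 0.0971% and 0.0661%, and so was the endothelial Mir126a, at 4.97% and 4.78%. These calls held with TMM and DESeq2 size factors, except that Mir145a was called lower with the latter. The leukocyte genes Mir223 and Mir150 summed to 0.0403% and 0.0406% and passed no call here, but Mir223 was called lower with either scaling. Of the brain genes only Mir9-3 had enough reads to be tested, at 19 and 6. Mir9-3 passed no call here either, but was called lower with either scaling. Of the 7 kidney genes, Mir192, Mir204 and Mir429 were called lower and Mir30a and Mir200c higher in replicate 2, and with either scaling Mir200c and Mir194-2 were called lower. The part of these markers in the differences of Mir130a, Mir130b and Mir301 was not tested.

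A list of vascular miRNA genes places the family in context. Of its 13 genes 12 were measured and 11 reached 1 CPM in both libraries, against 394 of all 1973 genes. The 12 measured had a median of 299 CPM, and 3 of them share sequence with another miRNA gene, so reads can be missing from their counts. Over all genes the median was 0, and over those reaching 1 CPM in both libraries 68.8 CPM. The 3 highest of the list were Mir10a, Mir10b at 61578 ± 5289 CPM and Mir126a at 48756 ± 1345 CPM (SD, n = 2 each). Mir130a was below Mir143, the smooth muscle miRNA, in replicate 2 (29016 CPM) but above it in replicate 1 (24616 CPM). Between the pools 6 of the 11 vascular genes tested were called higher and 3 lower in replicate 2, against 40.2% and 15.6% of all genes tested. With TMM 3 were called higher and 4 lower, and with DESeq2 size factors 3 and 5, so this split rests on the scaling. The median log2 ratio was 0.10 against 0.15 over all genes tested.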

How the data were processed

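The deposited files give raw read counts per miRNA gene for each library, on the gene's own strand, on the opposite strand and on both. The authors counted alignments to mm10 over the GENCODE M4 annotation, per the deposited notes, and which aligner and counter they used is not given in the sources used here. Each own-strand count was divided by the sum over genes of its library. The lines of unmapped, several-loci and no-feature reads were left out of that sum. Unmapped reads made up 17.7% and 19.7% of all reads, and reads in no feature 2.57% and 4.05%. Names and positions came from GENCODE M21 by identifier, which named 1894 of 1973 genes.

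The members and lists were chosen with earlier results of these data known. Named genes are the members, genes with the same or a shifted seed, their neighbours in rank and position, the 3 highest of the vascular list and the most abundant gene. Markers, the pairs Mir20a with Mir19a and Mir1306 with Gm24572, and the other vascular genes with values were named after seeing the values. Another list is not reported here. For the difference between libraries, genes averaging 10 counts or more entered an exact binomial test (two-sided), called at a Benjamini-Hochberg adjusted 0.05. It was tried on counts simulated with counting error alone. The real libraries differed by more than that, so the simulation does not show the error rate of the test here. Intervals are 95% Clopper-Pearson. edgeR 4.0.16 (TMM factors, dispersion with an intercept alone) and DESeq2 1.42.0 (size factors) ran in R 4.3.3, the rest in Python 3.11.15 with scipy 1.17.1, and RNAfold 2.7.2 predicted structures. Alternatives were other scalings, denominators, strands, count filters, each replicate left out and division by hairpin length.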

Additional observations from a re-analysis of the deposited data

How the results depend on the processing

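The denominator set the levels. Without Mir10a in the total, the members stood at 28801, 7259, 885 and 77.5 CPM (Mir130a, Mir130b, Mir301, Mir301b) and together at 3.70%. With all reads of the files as the total they stood at 12194, 3075, 374 and 32.8 CPM and at 1.57%. With a replicate left out the family's share was 2.91% to 3.35% and Mir130b over Mir301b 79.97 to 108. Division by hairpin length, chosen after seeing the data, gave 5.10 for Mir130a over Mir130b, 44.6 over Mir301 and 566 over Mir301b. The log2 ratio of Mir301b between the libraries changed sign with DESeq2 size factors, to -0.00092, and passed the test under none of the 6 alternatives. Under these 6 alternatives the number of members called stayed at 3, and the number of genes called ran from 194 to 223. Ranks with both strands summed were 96 for Mir301 and 209 for Mir301b. The calls of the vascular and marker genes with TMM and DESeq2 size factors were also chosen after seeing the data. With 2 libraries of 1 group no contrast between conditions could be tested. No paired analysis was possible because there is only 1 group. Depth limits Mir301b most, at 461 and 406 reads.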
